A study of Mus musculus with 2 samples.

Results

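The sebaceous lipid genes described here were 10 genes of the 32285 listed in the count tables, chosen by symbol: Pparg, Cidea, Elovl3, Scd1, Acsbg1, Lpl, Mgst1, Fabp5, Plin2 and Aldh3a1. All 10 were found in both tables under their own symbols, and their levels were followed through the cell groups of newborn mouse hair follicle (HF) epithelium, with the upper HF (uHF) and the sebaceous gland (SG) set against the rest. Single-cell RNA-seq was run on back skin of mice at postnatal day 1, with 1 library labelled WT (PADI4 WT) and 1 library from mice in which Padi4, a peptidylarginine deiminase gene, was to be deleted in keratinocytes by K14-Cre (PADI4 cKO, Padi4 fl/fl). K14-Cre acts in keratin 14 positive epithelium and its descendants, and the cells of both libraries were sorted as live tdTOMATO-positive cells from the dermal side of the skin after the epidermis had been peeled off. The sample preparation text is the same for both libraries and names K14-Cre Padi4 fl/fl mice in both, and the number and the sex of the animals behind each library were not given.

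Sebaceous glands are appendages of the uHF whose cells, the sebocytes, fill with lipid and then burst to release sebum onto the hair and skin. Sebum holds triglycerides, wax esters and long fatty acids, and the nuclear receptor PPARγ, encoded by Pparg, is the regulator best known for driving sebocyte maturation. The other members encode steps of the same chemistry: making fatty acids longer or less saturated, coupling them to coenzyme A, taking them up from outside, binding them in the cytosol, packing them into droplets, and clearing reactive by-products.

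After filtering, 8071 PADI4 WT and 7392 PADI4 cKO cells remained, with a median of 14670 and 16208 UMIs (unique molecular identifiers, each standing for 1 captured RNA molecule) per cell, and 17 of the barcodes with at least 2000 UMIs occurred in both libraries. Padi4 itself did not check the labels: it had 98 UMIs (0.770 CPM, counts per 1000000 UMIs) in PADI4 WT and 92 UMIs (0.711 CPM) in PADI4 cKO epithelial cells, in counts that read the 3′ end of a transcript, so the second is the library labelled PADI4 cKO throughout. The libraries also differed in sex. In PADI4 WT, 26.0% of epithelial cells had Xist UMIs without any from Y-linked genes and 62.4% had Y-linked UMIs without Xist, whereas PADI4 cKO had 98.3% and 0%. With 1 library per genotype there was no replicate for any value. The intervals given are exact 95% counting intervals (Poisson for CPM, binomial for shares and ratios), they cover counting error only, and no p-value was computed.

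The cells were clustered without the 10 members and without 71 further lipid genes, so that the groups did not rest on the genes described. The group called SG-like held 53 PADI4 WT and 64 PADI4 cKO cells (0.663% and 0.870% of epithelial cells) and had 7 of 9 SG markers raised, among them Awat2, Mc5r and Far2. A larger group of 395 and 354 cells (4.94% and 4.81%) had 6 of 9 SG markers and 5 of 7 uHF markers raised, Lrig1, Plet1, Gata6, Krt79 and Cst6, and is called uHF/SG because neither list led. This group also had 3 of 5 outer root sheath markers raised. Median UMIs per cell were 15911 and 12944.5 in the SG-like cells, 11314 and 11272.5 in the uHF/SG cells, and 14868 and 16468.5 in the other epithelial cells, which numbered 7549 and 6938. All levels below are CPM of the summed UMIs of a cell group in 1 library. Because 3′ counting is not scaled to the length or the capture of a transcript, levels were compared between cells and not between genes.

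Promoter sequence was at hand for 4 of the 10 members, Pparg, Acsbg1, Mgst1 and Plin2 (RefSeq, GRCm38.p6), and was searched for the nuclear receptor hexamer AGGTCA, in either orientation, because PPARγ is among the receptors that bind repeats of it. In the 250 bases before each annotated start, the hexamer was found in 2 of the 3 Pparg windows and in the Plin2 window. It was found in neither Mgst1 window and not in the Acsbg1 window. Of 32851 promoter windows of this length in the mouse genome 14.02% held it, so its presence here is a description of the letters and not of binding. The spaced repeat AGGTCANAGGTCA, which contains the hexamer, was in 11 of the 32851 windows (0.0335%) and in none of the members'. The hexamers of Pparg are shown with 12 bases on either side, because the first lies 28 and the second 9 bases before a RefSeq start and both fall inside a first exon (5′ UTR) of another GENCODE transcript of the gene. The whole windows are shown for Plin2, where the hexamer begins 218 bases before the start, and for Acsbg1, the member whose levels over the cell groups ran closest to those of Pparg. Hexamers are in capitals, and all are written 5′ to 3′ on the strand of the gene.
Pparg first start, chr6:115361104-115361133, plus strand: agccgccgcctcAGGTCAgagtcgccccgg
Pparg second start, chr6:115362328-115362357, plus strand: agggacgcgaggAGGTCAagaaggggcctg
Plin2, chr4:86670060-86670309, minus strand: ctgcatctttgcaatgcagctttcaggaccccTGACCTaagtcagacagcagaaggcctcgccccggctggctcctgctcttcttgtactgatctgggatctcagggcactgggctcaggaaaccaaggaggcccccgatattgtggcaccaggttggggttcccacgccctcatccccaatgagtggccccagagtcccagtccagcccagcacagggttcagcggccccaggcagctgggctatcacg
Acsbg1, chr9:54661886-54662135, minus strand: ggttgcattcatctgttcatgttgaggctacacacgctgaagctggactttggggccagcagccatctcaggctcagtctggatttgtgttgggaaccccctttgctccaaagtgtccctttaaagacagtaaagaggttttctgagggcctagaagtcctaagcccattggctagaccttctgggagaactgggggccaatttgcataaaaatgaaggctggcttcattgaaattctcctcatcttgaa

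All 10 members were higher in the SG-like cells than in the other epithelial cells (all epithelial cells outside the SG-like and uHF/SG groups) by at least 2-fold in both libraries, against 7.40% of the 14815 genes with at least 100 UMIs in that comparison. Those other cells still held groups with uHF markers. The Stfa1 cluster (620 PADI4 WT and 230 PADI4 cKO cells) and the Hapln2 cluster (215 and 310 cells) each raised 4 of the 7 uHF markers. In log2 units the median of the members was 5.66 in PADI4 WT and 5.36 in PADI4 cKO, and that of all genes was -0.16 and -0.09. The members did not share 1 pattern in the uHF/SG cells: 8 of 10 were at least 2-fold higher there than in the other epithelial cells in both libraries (7 of the 9 that had at least 100 UMIs, against 5.44% of 14876 genes), Fabp5 was at least 2-fold lower (8.43% of genes were), and Scd1 was on neither side. For 8 of 10 members the highest of all cell groups was SG-like in both libraries, and for Lpl and Aldh3a1 it was uHF/SG. The share of all genes with their highest level in the SG-like cells was not counted, so this count describes the members only. The plot of levels by cell group shows these patterns side by side.

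**Figure D1:**
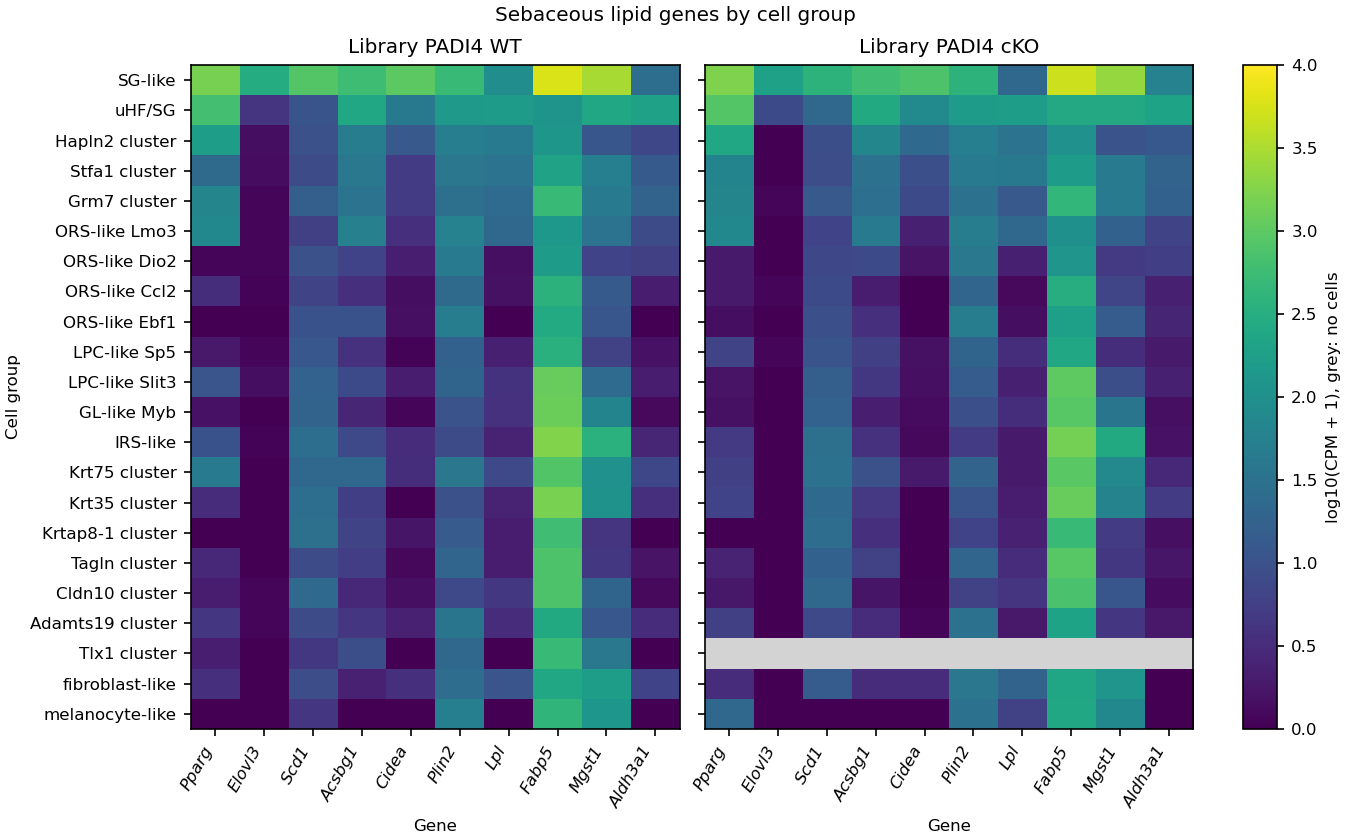
Level of each of the 10 sebaceous lipid genes (columns) in each cell group (rows), 1 panel per library, as log10(CPM + 1) of the summed UMIs. The SG-like row is the brightest for 8 genes and the uHF/SG row for Lpl and Aldh3a1, while Fabp5 and Mgst1 keep high values in other groups; the grey row marks a cluster with no PADI4 cKO cells.

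Positions are from GENCODE vM21 (GRCm38), in which all 10 members are protein coding genes. Pparg (chr6:115360951-115490399, plus strand), the regulator of the set, stood at 1494 CPM (interval 1416 to 1574) in PADI4 WT and 1671 (1591 to 1754) in PADI4 cKO SG-like cells. The uHF/SG cells had 631 and 861 CPM, and the Hapln2 cluster, which raised 4 of 7 uHF and 5 of 5 outer root sheath (ORS) markers, had 176 and 241. Next came the ORS-like Lmo3 cells with 71.6 and 71.4 CPM and the Grm7 cluster with 64.1 and 64.3, and these neighbors overlapped in their intervals. Of the Grm7 cells 75.8% were marked as likely doublets, with a median of 27599 UMIs, so this cluster is listed but not read as a cell type here or below. The first 3 steps of this order did not overlap in either library. Other epithelial cells had 15.0 and 16.7 CPM. A Pparg UMI was found in 98.1% and 95.3% of SG-like cells, in 79.2% and 81.9% of uHF/SG cells and in 4.56% and 4.79% of the others. The few fibroblast-like cells (48 and 26, with a median of 13743.5 and 16668.5 UMIs) had a Pparg UMI in 4.17% and 3.85% (2 of 48 and 1 of 26 cells), a share close to that in the other epithelial cells, although the level was lower (2.63 and 2.24 CPM). Genes on the opposite strand overlap Pparg (Gm44079), Cidea (B430212C06Rik) and Elovl3 (Pitx3), and whether the counting told the strands apart is not given in the sources used here.

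Among the enzymes that build fatty acids, Elovl3 (chr19:46131897-46135694, plus strand), an elongase of very long saturated and monounsaturated chains, was the most restricted. It had 295 CPM (276 UMIs) in PADI4 WT and 192 CPM (188 UMIs) in PADI4 cKO SG-like cells, against 3.13 and 7.01 CPM (16 and 33 UMIs) in the uHF/SG cells and 0.140 and 0.0323 CPM (17 and 4 UMIs) in all other epithelial cells. No further group exceeded 0.416 CPM. Elovl3 UMIs were in 79.2% and 60.9% of SG-like cells, in 4.05% and 5.08% of uHF/SG cells, and in 0 of the 48 and 26 fibroblast-like cells.

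Scd1 (chr19:44394455-44407879, minus strand), the stearoyl-CoA desaturase that introduces the first double bond, reached 837 and 390 CPM in the SG-like cells (interval 779 to 897 and 352 to 431). Unlike the regulator, it was not raised in the uHF/SG cells, where it had 9.79 and 20.6 CPM (50 and 97 UMIs) beside 14.8 and 14.8 in the other epithelial cells. The groups next in order were shaft and sheath cells: 28.8 CPM in the Krtap8-1 cluster and 26.9 in IRS-like (inner root sheath) cells of PADI4 WT, and 30.9 in the Krt75 cluster and 28.5 in IRS-like cells of PADI4 cKO, with overlapping intervals. Of the 31-base words in the last 500 bases of Scd1 transcripts, 3.15% also occurred in another gene, chiefly Scd3, so a small part of its counts could be split with that paralog.

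Acsbg1 (chr9:54604877-54661870, minus strand), an acyl-CoA synthetase of the bubblegum family that activates long fatty acids, had the same first groups as Pparg. It had 581 and 588 CPM in SG-like cells, 253 and 270 in uHF/SG cells and 11.3 and 8.30 in the others, and the groups in between were the Hapln2 cluster (49.1 and 66.3 CPM) and the ORS-like Lmo3 cells (54.8 and 45.4 CPM). UMIs of the gene were in 96.2% and 95.3% of SG-like cells and in 71.6% and 72.9% of uHF/SG cells, against 2.08% and 3.85% of fibroblast-like cells.

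Both droplet proteins were highest in SG-like and next in uHF/SG cells, with different slopes. Cidea (chr18:67343604-67367785, plus strand), which acts in the fusion and growth of lipid droplets, had 969 and 776 CPM in the SG-like cells, 40.7 and 78.4 in uHF/SG cells, 11.97 and 22.3 in the Hapln2 cluster and 1.43 and 1.49 in the other epithelial cells. Plin2 (chr4:86648386-86670060, minus strand), a coat protein of droplets in most cell types, had a shallower slope: 510 and 388 CPM in SG-like cells, 140 and 162 in uHF/SG cells and 22.0 and 19.2 in the others. The ORS-like Lmo3 cells (57.3 and 47.3 CPM) and the Hapln2 cluster (51.1 and 52.8 CPM) followed uHF/SG for Plin2 and overlapped each other. Plin2 UMIs were in 98.1% and 95.3% of SG-like cells but also in 33.3% and 42.3% of fibroblast-like cells. Cidea UMIs were in 92.5% and 89.1% of SG-like cells, 24.8% and 36.2% of uHF/SG cells, and 4.17% and 3.85% of fibroblast-like cells.

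Of the genes that bring in and hold fatty acids, Lpl (chr8:68880491-68907448, plus strand), the secreted lipase that frees fatty acids from circulating triglycerides, had the reverse order of the SG-like and uHF/SG cells. Its highest level was in uHF/SG cells, 162 CPM in PADI4 WT and 168 in PADI4 cKO, with 72.9% and 76.6% of the cells carrying a UMI. SG-like cells had 88.8 CPM (interval 70.7 to 110) and 21.4 CPM (13.3 to 32.8), from 83 and 21 UMIs. In PADI4 WT this was second in order, and in PADI4 cKO it came after uHF/SG and also behind the Stfa1 cluster (40.9 CPM) and the Hapln2 cluster (32.9 CPM), whose interval it overlapped. Other epithelial cells had 7.05 and 5.02 CPM, and fibroblast-like cells 10.5 and 17.9.

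Fabp5 (chr3:10012548-10016607, plus strand), the epidermal fatty acid-binding protein, had the least specific pattern. The SG-like cells were highest with 6023 and 5012 CPM, but the other epithelial cells had 726 and 606, with IRS-like cells at 1762 and 1449 and the Krt35 cluster at 1595 and 1188. The uHF/SG cells were far below: 115 CPM in PADI4 WT, the lowest of all groups, and 254 CPM in PADI4 cKO, where the ORS-like Lmo3 cells were lowest with 100 CPM. Shares of cells with a UMI were 94.3% and 89.1% (SG-like), 46.1% and 47.2% (uHF/SG), 83.9% and 82.3% (other epithelial) and 66.7% and 73.1% (fibroblast-like).

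The detoxifying enzymes were highest in different cell groups, as were Fabp5 and Lpl. Mgst1 (chr6:138140316-138156755, plus strand), a microsomal glutathione S-transferase and peroxidase, had 2964 CPM (interval 2854 to 3076) and 2314 CPM (2220 to 2412) in SG-like cells, and every one of them carried a UMI. IRS-like cells came second with 361 and 271 CPM, and uHF/SG cells after them with 240 and 262, overlapping the IRS-like cells in PADI4 cKO. Aldh3a1 (chr11:61207537-61218421, plus strand), an aldehyde dehydrogenase that oxidizes lipid-derived aldehydes, was instead highest in the uHF/SG cells with 197 and 205 CPM. Its SG-like levels were 26.7 CPM (17.3 to 39.5) and 59.2 CPM (45.0 to 76.5), from 25 and 58 UMIs, and in PADI4 WT this overlapped the Grm7 cluster of mostly likely doublets at 17.5 CPM. Aldh3a1 UMIs were in 63.5% and 63.3% of uHF/SG cells, in 15.1% and 29.7% of SG-like cells and in 3.23% and 3.11% of the others.

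Setting the SG-like cells directly against the uHF/SG cells separated the members, and the same 5 had the largest ratios in both libraries. Elovl3 (94.3- and 27.4-fold higher in SG-like cells), Scd1 (85.5 and 18.9), Fabp5 (52.4 and 19.7), Cidea (23.8 and 9.89) and Mgst1 (12.3 and 8.82) were those 5. Plin2 (3.64 and 2.39), Pparg (2.37 and 1.94) and Acsbg1 (2.29 and 2.18) differed less between these groups. Lpl was 1.83- and 7.83-fold, and Aldh3a1 7.35- and 3.46-fold, higher in the uHF/SG cells. No interval of these ratios reached equality in either library, and the 5 largest ratios were all larger in PADI4 WT, where the uHF/SG cells held less Cidea, Scd1 and Fabp5. The groups came from clustering these same cells on other genes, so the ratios are a description.

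**Figure D2:**
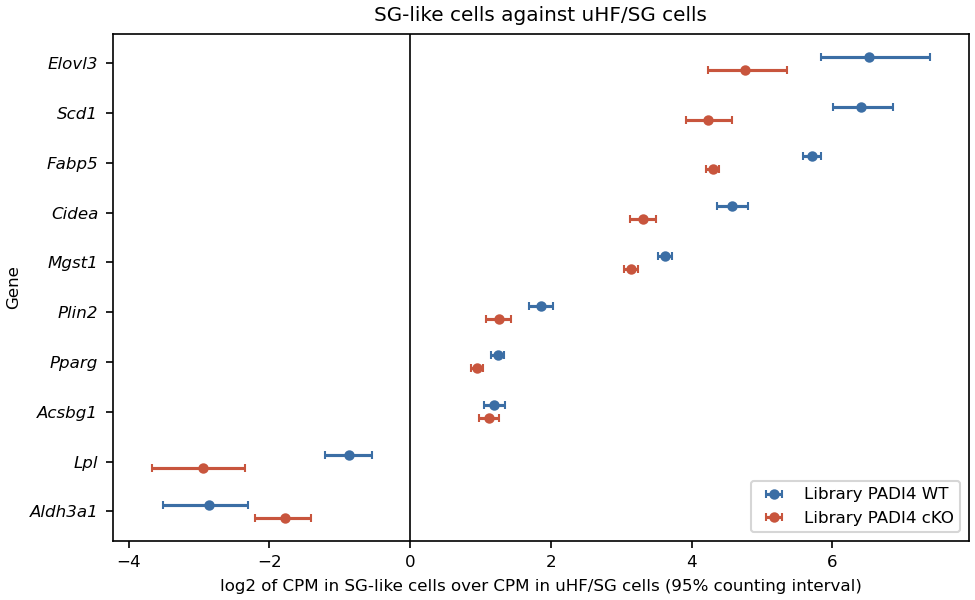
Log2 ratio of the level in SG-like over uHF/SG cells for each gene and library, with exact 95% counting intervals; values above 0 are higher in SG-like cells. Elovl3, Scd1, Fabp5, Cidea and Mgst1 lie above 3 on the log2 axis in both libraries, Plin2, Pparg and Acsbg1 between 0.96 and 1.87, and Lpl and Aldh3a1 below 0.

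Within single cells the members occurred together mainly in the SG-like group. After each cell was thinned to 2000 UMIs, the median SG-like cell had UMIs of 6 of the 10 genes in PADI4 WT and of 5 in PADI4 cKO, the median uHF/SG cell of 2 in each library, and the median other epithelial cell of 1. At least 5 of the 10 genes were detected in 77.4% (41 of 53) and 64.1% (41 of 64) of SG-like cells, in 6.58% (26) and 8.76% (31) of uHF/SG cells, and in 0.0397% (3) and 0% (0) of the others. No SG-like cell lacked all 10, whereas 11.1% and 9.32% of uHF/SG cells did. Without thinning, the medians were 8 and 8 in SG-like, 5 and 6 in uHF/SG and 2 and 2 in other epithelial cells.

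**Figure D3:**
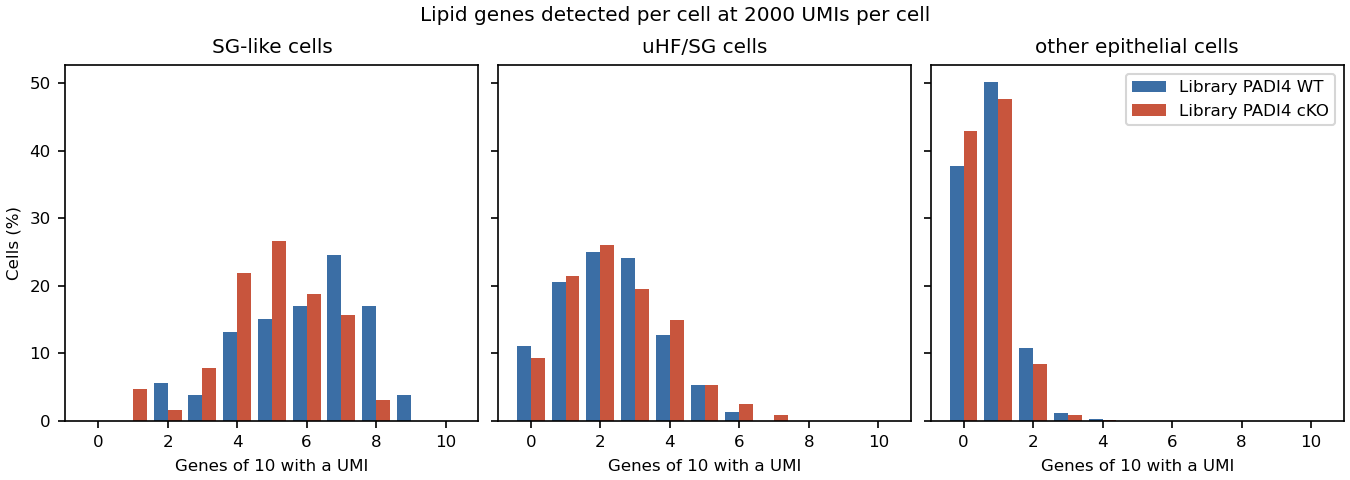
Share of cells (percent) by the number of the 10 genes with at least 1 UMI after thinning every cell to 2000 UMIs, in SG-like, uHF/SG and other epithelial cells, for both libraries. SG-like cells peak at 7 genes in PADI4 WT and 5 in PADI4 cKO, uHF/SG cells at 2, and other epithelial cells at 1.

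Across the SG-like cells the members were not equally variable. Elovl3 had a median of 142 CPM per cell in PADI4 WT and 70.2 in PADI4 cKO but reached 1545 and 1616, and Fabp5 ranged from a lower quartile of 632 and 501 CPM to an upper quartile of 9368 and 5883. Pparg was more even, with quartiles of 684 and 2241 CPM in PADI4 WT and 775 and 2565 in PADI4 cKO. Cidea, Elovl3, Scd1, Mgst1 and Fabp5, the 5 genes with the largest SG-like over uHF/SG ratios, also ran together from cell to cell: their 10 pairs had Spearman correlations of 0.49 to 0.81 (median 0.65) over 53 cells and 0.40 to 0.72 (median 0.61) over 64 cells, while the other 35 pairs had medians of 0.09 and 0.07. Those other pairs include all with Lpl or Aldh3a1, which had no UMI in many SG-like cells. Lpl had none in 29 of 53 and 50 of 64 cells, and Aldh3a1 in 45 of 53 and 45 of 64. The part of these zeros in the lower medians was not tested. The grouping of 5 genes was made after the values were seen. Pparg was negatively correlated with these 5 in PADI4 WT (-0.46 to -0.18) and on both sides of 0 in PADI4 cKO (-0.26 to 0.26). The cells of a library share its preparation, and depth ran along with several of these genes in PADI4 cKO (Spearman correlation with UMIs per cell 0.30 to 0.41 for the 5 genes) more than in PADI4 WT (-0.19 to 0.30), and its part in the pairs was not tested. In the uHF/SG cells the same 10 pairs lay between -0.05 and 0.17 (395 cells) and -0.06 and 0.20 (354 cells). Many of those cells had no UMI of the genes paired: 379 and 336 for Elovl3, 362 and 315 for Scd1. For Cidea they were 297 and 226, for Fabp5 213 and 187, and for Mgst1 96 and 106. So many ties at 0 limit a correlation, so the low values do not show that these genes varied apart. Pparg, without a UMI in 82 and 64 cells, correlated with Acsbg1 (0.41 and 0.39), Plin2 (0.39 and 0.37) and Cidea (0.32 and 0.39).

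**Figure D4:**
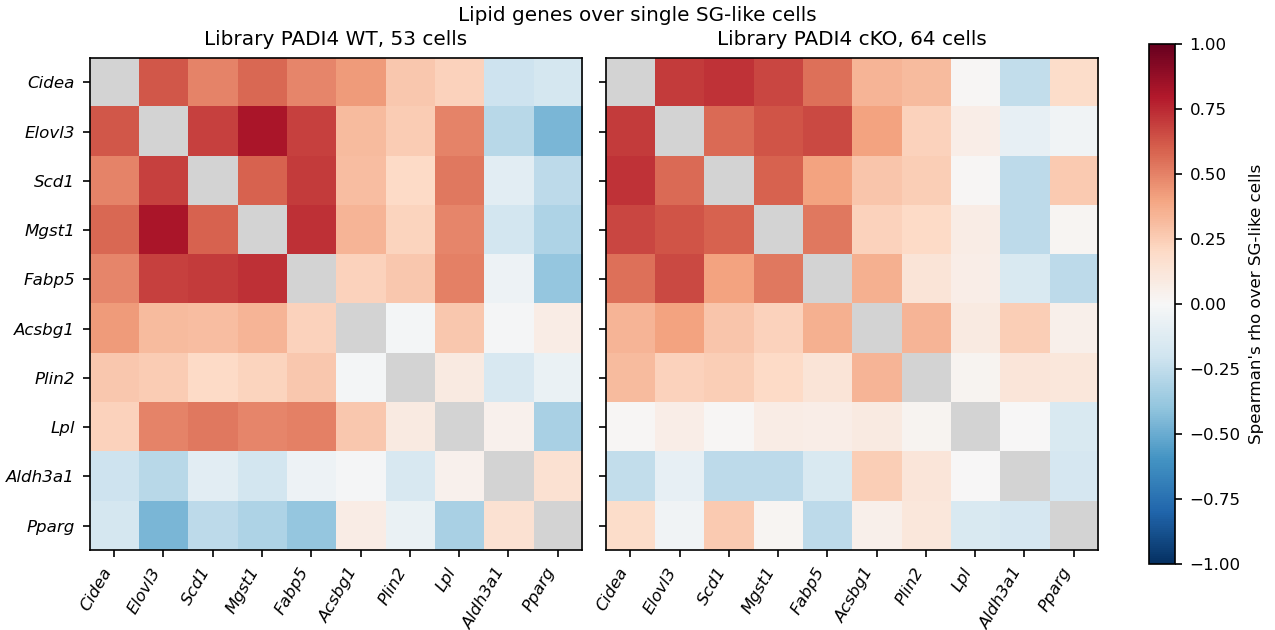
Spearman correlation of CPM per cell between each pair of the 10 genes over the SG-like cells, 53 in PADI4 WT and 64 in PADI4 cKO. The block of Cidea, Elovl3, Scd1, Mgst1 and Fabp5 is positive in both panels (0.49 to 0.81 and 0.40 to 0.72), and Pparg falls outside it.

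To find the genes most like each member, Pearson correlations of log2(CPM + 1) were taken over 42 points, the cell groups of both libraries with at least 20 cells, for 14185 genes, and the 3 closest genes outside the members and the 71 pathway genes are named. These points share libraries and cell groups, and a few high groups set most of the values. Among the members, Pparg and Acsbg1 were the most alike (0.94) and Lpl and Fabp5 the least (-0.18). Outside those lists the closest to Pparg were Sdr16c6 (0.90), Syn2 (0.89) and the antisense-lying Gm44079 (0.89), and for Acsbg1 Sdr16c6 (0.90), Sdr16c5 (0.89) and Gm44079 (0.89). Elovl3 had the closest followers of all, Cyp2g1, Gm9944 and Hsd3b6 (each 0.99), and Cidea was nearest to Gm44079 (0.96), Timp4 (0.94) and Ofcc1 (0.94). Aldh3a1 was nearest to Syn2 (0.88), Scube2 (0.88) and Timp4 (0.85), and Lpl to Parm1 (0.87), Orm1 (0.86) and Gm32255 (0.84). Plin2 went with Aldh6a1 (0.94), Ldhb (0.94) and Uqcc3 (0.92), Scd1 with Psma5 (0.92), Ubqln1 (0.90) and Adig (0.89), Mgst1 with Eci2 (0.84), Smarcc2 (0.83) and Extl1 (0.83), and Fabp5 with Pak1ip1 (0.91), Arpc1a (0.89) and Slc25a3 (0.89).

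The wider lipid pathway was read from 71 genes in 9 lists, chosen with earlier results of these data known. In the SG-like cells 33 of the 60 that had enough UMIs were at least 2-fold higher than in the other epithelial cells in both libraries (7.40% of all genes were). Of the rest, 7 were lower, where 17.1% of all genes were, and 20 were neither. The lower genes were thus no more frequent than among all genes. The median log2 ratio was 1.61 and 1.34. All 5 fatty acid synthesis genes were among the 33 higher: Acly, Acaca, Fasn, Me1 and Acss2, with log2 ratios from 1.45 (Acaca) to 4.64 (Acss2) in PADI4 WT and from 1.08 to 4.80 in PADI4 cKO. So were 4 of 5 triglyceride synthesis genes, of which Dgat2, which adds the last acyl chain, stood at 68.5 and 64.3 CPM against 2.96 and 2.71.

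Elongation and desaturation was mixed. Elovl6, which elongates palmitate, had 2589 and 1651 CPM in SG-like cells (log2 ratio 5.11 and 4.39) and Elovl1 and Elovl4 were also higher, but Fads1 and Scd2 were lower, Scd2 with 25.7 and 8.17 CPM against 101 and 95.3 in the other epithelial cells. Fads2 was counted among the lower genes from 0 UMIs in SG-like cells of both libraries, a count of 0 that allows up to 3.21 and 3.06 CPM, beside 4.11 and 4.12 CPM in the other epithelial cells. The 4 acyl-CoA activation genes that were higher were Acsl1, Acsl4, Acsl5 and Slc27a4, while Acsl3 was lower.

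Of the lipid transcription factors tested, 6 of 11 were higher in SG-like cells: Ppara (176 and 133 CPM, log2 ratio 4.81 and 4.65), Cebpa, Cebpb, Srebf1, Srebf2 and Mlxipl, the last from 6 and 3 UMIs and with an interval that took in 0 in PADI4 cKO. Ppard, another PPAR, was lower (log2 ratio -1.53 and -1.22). In the droplet list 4 of 7 were higher, led by Fitm2 (4.32 and 4.46), and in the uptake list 3 of 5, with the fatty acid transporter Cd36 at 126 and 87.8 CPM against 0.0412 and 0.00808 CPM (5 and 1 UMIs) in the other epithelial cells. Of 7 cholesterol genes 3 were higher, Hmgcs1 and Idi1 among them, and 4 were neither. Of 7 aldehyde and glutathione S-transferase genes only Aldh3b2 was higher (4.79 and 5.05) and Mgst3 and Gstm1 were lower, unlike the member Mgst1.

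In the uHF/SG cells 16 of 59 pathway genes were at least 2-fold higher (5.44% of all genes were), 7 lower (8.43% of all genes were) and 36 neither. The median log2 ratio was -0.13 and 0.12. Transcription factors were among the higher, with Ppara at 47.0 and 53.8 CPM (log2 ratio 2.90 and 3.35), Cebpa at 165 and 190 (1.67 and 2.11) and Cebpb at 436 and 511 (1.61 and 1.89), besides Mlxipl and Ppargc1a, the last from 8 and 7 UMIs and with an interval that took in 0 in PADI4 WT. Acss2 was the only 1 of the 5 fatty acid synthesis genes to be higher (1.72 and 2.17). Acsl1, Acsl4 and Acsl5 were higher, as were Dgat2, Lpin1, Fitm2, Mgll, Vldlr, Aldh3a2 and Mgst2. Fads1, Fads2, Scd2, Acsl3, Insig1, Aldh1a3 and Mgst3 were lower.

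Several members are also genes of fat cells, and adipocyte markers were examined beside them. The summed level of 6 adipocyte markers was 5.35 and 2.04 CPM (5 and 2 UMIs) in SG-like cells and 0.391 and 0.425 CPM (2 UMIs each) in uHF/SG cells, and Adipoq, Plin1 and Lep were at 0 in the SG-like cells of both libraries. Fibroblast markers summed to 5.35 and 3.06 CPM in SG-like cells against 3684 and 5515 in fibroblast-like cells, immune markers to 0 and 1.02, melanocyte markers to 2.14 and 0, and endothelial markers to 9.63 and 9.19. Markers of other epithelial classes were present in the SG-like cells and differed between the libraries: IRS markers summed to 720 CPM in PADI4 WT and 258 in PADI4 cKO, germinative layer (GL) markers to 450 and 188, ORS markers to 503 and 917, and interfollicular epidermis (IFE) markers to 785 and 935. In the other epithelial cells the IRS sum was 891 and 806 CPM and the GL sum 2136 and 2482. Their ORS sum was 1520 and 1361 CPM and their IFE sum 287 and 155, the latter below that of the SG-like cells. The uHF markers summed to 3427 and 3982 CPM in SG-like cells. They summed to 1608 and 1762 CPM in uHF/SG cells and to 476 and 428 in the others. In uHF/SG cells the ORS markers summed to 2813 and 2785 CPM. Likely doublets were 6.84% of SG-like and 4.54% of uHF/SG cells, where 6% of all cells were marked. Free RNA, bounded by the level of Col3a1 in droplets under 100 UMIs, made up at most 1.09% and 0.741% of the UMIs of epithelial cells. On that bound it could account for at most 0.387% and 0.318% of any member's UMIs in SG-like cells. In uHF/SG cells the bound was highest for Fabp5, 9.15% and 2.49%, and for Elovl3 in the other epithelial cells it was 19.1% and 101%. At that upper bound free RNA could account for the whole trace of Elovl3 there in PADI4 cKO, and its source was not tested.

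Between the libraries the members differed little over all epithelial cells. Only Mgst1 passed the fixed size of 0.5 log2 units, at 88.1 CPM in PADI4 WT and 62.0 in PADI4 cKO (log2 cKO over WT -0.51, interval -0.55 to -0.47), which is 1 of 10 members against 5.16% of 14903 genes (1.57% above 0.5 and 3.59% below -0.5). The median was -0.20 over the members and -0.01 over all genes. Mgst1 was also below -0.5 in 7 of the 13 clusters in which it could be compared, with values from -1.76 to 0.13. The difference over all epithelial cells depended on which cells were kept. With only the cells that had Xist and no Y-linked UMIs in both libraries it was -0.06 (-0.14 to 0.01). With only the Y-linked cells of PADI4 WT it was -0.69. The parts of sex, animal and cell mix in this were not tested. In Xist cells alone Pparg (0.82) and Cidea (0.52) passed the size instead, with Acsbg1 at 0.50. Inside the PADI4 WT library, 6 of the 10 members were more than 0.5 log2 units higher in the 4993 Y-linked than in the 2079 Xist cells, among them Pparg (56.3 against 34.4 CPM, log2 0.71), Acsbg1 (0.86) and Mgst1 (0.62), where 4.36% of 13381 genes were above and 5.66% past that size. Sex and animal cannot be told apart in that comparison. The uHF/SG cells, where most of these genes are high, were 76 of the Xist and 282 of the Y-linked cells, and within uHF/SG cells 0 of the 8 members that could be compared passed 0.5, against 10.2% of 6612 genes (5.97% above it). Within SG-like cells 1 of 8, Fabp5, passed it, against 16.2% of 1478 genes (8.39% above it).

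In the uHF/SG cells 3 of the 9 members compared were past 0.5, all higher in the library labelled PADI4 cKO, against 7.00% of 8862 genes past that size, 3.31% above 0.5 and 3.69% below -0.5. Cidea had 40.7 CPM in PADI4 WT and 78.4 in PADI4 cKO (log2 0.94, interval 0.70 to 1.20), Scd1 9.79 and 20.6 (1.07, 0.57 to 1.60) and Fabp5 115 and 254 (1.15, 1.00 to 1.29). Few cells carried these counts: in PADI4 cKO the highest 5 of 354 cells held 55.6% of the Fabp5 UMIs, 49.5% of the Scd1 UMIs and 26.0% of the Cidea UMIs, and in PADI4 WT the highest 5 of 395 held 20.3%, 32.0% and 23.6%. The share of uHF/SG cells with a Fabp5 UMI was 46.1% and 47.2%, and the median per cell was 0 for all 3 genes. With Xist cells alone the values were 0.84 for Cidea, 1.11 for Scd1 and 1.5 for Fabp5. Leaving out likely doublets, which redrew this group to 842 and 605 cells, turned Fabp5 to -0.29, and limits of 1000 and 4000 UMIs per cell turned Scd1 to -0.60 and -0.96, where the group held 413 and 387 cells at the lower limit and 379 and 347 at the higher. Cidea stayed positive in all 14 settings that gave a value (0.21 to 1.01). The high expressers of this group were not removed, and their part in the differences was not tested. Pparg was at 0.45, and Acsbg1, Lpl, Mgst1, Plin2 and Aldh3a1 lay between 0.05 and 0.21.

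In the SG-like cells 3 of the 9 members compared were past 0.5, all lower in the library labelled PADI4 cKO, against 8.26% of 3573 genes past that size, 4.48% above 0.5 and 3.78% below -0.5. Scd1 had 837 CPM in PADI4 WT and 390 in PADI4 cKO (log2 -1.10, interval -1.28 to -0.92), Elovl3 295 and 192 (-0.62, -0.90 to -0.35), and Lpl 88.8 and 21.4 (-2.03, -2.82 to -1.35), the last from 83 and 21 UMIs. Pparg (0.16) and Acsbg1 (0.02) differed least, and Cidea (-0.32), Mgst1 (-0.36), Fabp5 (-0.27) and Plin2 (-0.40) were between. Aldh3a1 had too few UMIs to be compared (25 and 58) and went the other way (1.13, interval 0.45 to 1.88). The median was -0.36 over the members and 0.02 over all genes. The summed IRS and GL markers of these cells were also lower in PADI4 cKO (258 against 720 and 188 against 450 CPM), and their part in the differences was not tested.

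With Xist cells alone, 13 in PADI4 WT and 63 in PADI4 cKO, Scd1 stayed at -0.80 (-1.09 to -0.50), the interval of Elovl3 took in 0 (-0.41, -0.86 to 0.09), Lpl could not be compared, and Fabp5 turned to 0.83 (0.70 to 0.96). Inside PADI4 WT, Fabp5 was 2889 CPM in the 13 Xist and 6770 CPM in the 36 Y-linked SG-like cells (log2 1.23), so cells of 1 library differed by more than the libraries did. The Lpl UMIs of PADI4 WT were also uneven, with 1 in the 13 Xist cells and 58 in the 36 Y-linked cells. In PADI4 WT the highest 5 of 53 cells held 48.2% of the Lpl, 42.0% of the Elovl3 and 40.7% of the Scd1 UMIs.

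**Figure D5:**
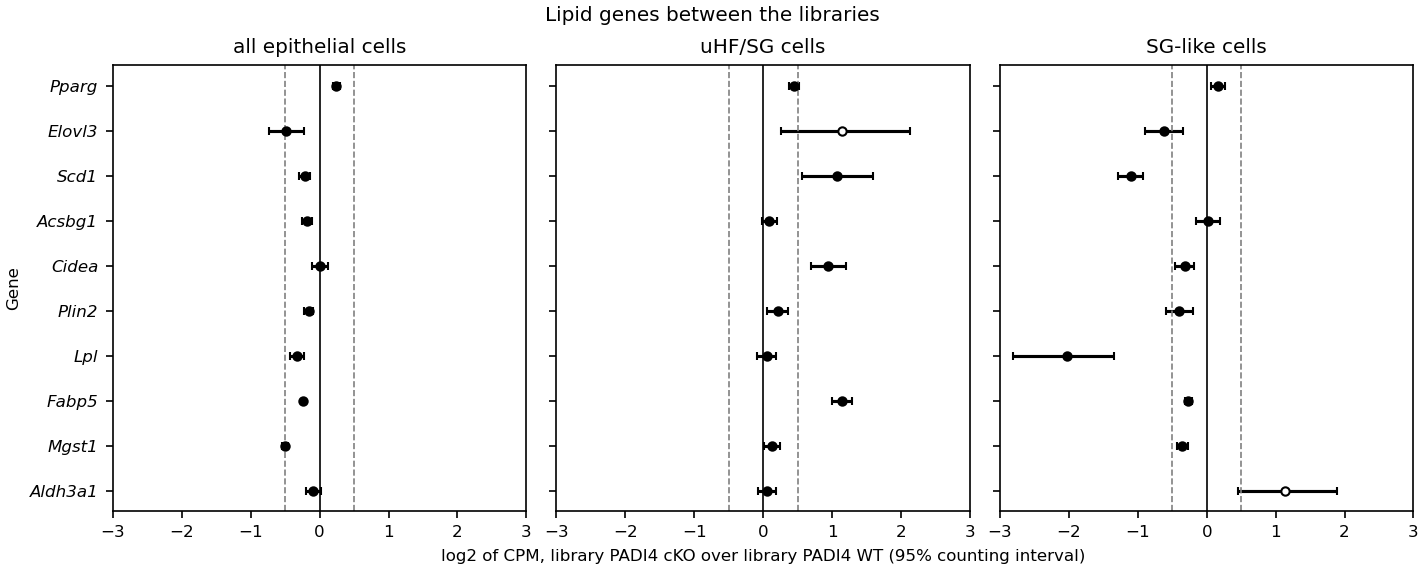
Log2 of each gene's PADI4 cKO level divided by its PADI4 WT level, with exact 95% counting intervals, in all epithelial, uHF/SG and SG-like cells; open circles mark fewer than 100 UMIs and dashed lines mark 0.5 in either direction. Past the lines and with enough UMIs are Mgst1 (-0.51) in all epithelial cells, Cidea, Scd1 and Fabp5 (0.94 to 1.15) in uHF/SG cells, and Elovl3, Scd1 and Lpl (-0.62 to -2.03) in SG-like cells.

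Of the pathway genes 3 of 61 were past 0.5 over all epithelial cells, a share near the 5.16% of all genes, and all 3 were lower in PADI4 cKO: Elovl4 (-0.77), Vldlr (-0.54) and Aldh1a3 (-1.33). In uHF/SG cells 9 of 44 were above 0.5 (3.31% of all genes were), among them Me1, Elovl6, Gpam, Fitm2, Sqle, Cyp51 and Aldh3b2 (0.50 to 0.86), and Gstm1 was below (-0.69). In SG-like cells 7 of 34 were below -0.5 (3.78% of all genes were), among them Elovl6 (-0.65), Acsl4 (-0.81), Cd36 (-0.52), Fdft1 (-0.97), Cyp51 (-0.78) and Idi1 (-0.55), and Elovl1 was above (0.52). Each comparison sets 1 library against 1 other, so genotype, sex, animal and library cannot be told apart.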

How the data were processed

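Single-cell 3′ RNA-seq counts (10x Chromium, v3.1) of 2 libraries were used as deposited by the authors: raw UMI counts per gene and barcode, unfiltered, made with Cell Ranger 7.1.0 per the file headers, with mm10 and Scanpy named in the submitters' processing notes. Whether intronic reads were counted is not given in the sources used here. The authors' background removal (CellBender) and harmony correction for cell cycle phase were not run. Cells had to hold 1000 to 8000 genes from 2000 to 60000 UMIs, with mitochondrial UMIs up to 20%, hemoglobin UMIs up to 1% and a ribosomal share from the 5th to the 99th percentile. Doublets were scored (6% marked) and kept. Cells were normalized to 10000 UMIs, corrected for cell cycle and clustered with Scanpy 1.11.5 (1000 variable genes, 50 principal components, 15 neighbors, resolution 1.0, members and pathway genes left out), giving 22 clusters. A cluster was named when at least 3 markers of a list were raised 1.5-fold at 5 CPM or more and led the next list by 2 markers. The last condition was set after the clusters were seen. The uHF-like group of the plan had no such cluster, so the uHF/SG cluster was used. UMIs were summed per group and library. Ratios used 0.5 added UMIs, compared genes had at least 100 UMIs, and calls used sizes of 2-fold between groups and 0.5 log2 units between libraries, with no test. The genes named are the 10 members, the listed pathway genes and the 3 genes most like each member. Values of some listed genes are not reported here. Members and lists were chosen with earlier results of these data known. Symbols were taken from the feature tables, and 32235 of 32285 identifiers matched GENCODE vM21 (GRCm38), the source of positions. Methods were tested on simulated data. Besides 15 other settings, 1 was added after the data were seen.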

Additional observations from a re-analysis of the deposited data

Results flagged for a closer look

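Scd1, Fabp5, Cidea, Plin2 and Mgst1 stood out because the difference between the libraries had opposite signs in the uHF/SG and in the SG-like cells, with both counting intervals free of 0. As log2 of the PADI4 cKO level divided by the PADI4 WT level, Scd1 was 1.07 in uHF/SG and -1.10 in SG-like cells, Fabp5 1.15 and -0.27, Cidea 0.94 and -0.32, Plin2 0.21 and -0.40, and Mgst1 0.13 and -0.36. Whether the cell groups differ in this was not tested, since each genotype had 1 library. The share of all genes that meet the same rule was not counted, so it is not known whether the members stand apart in this. Scd1 and Fabp5 reversed in the uHF/SG cells under other cell filters, Mgst1 there turned to -0.01 and -0.26 at limits of 1000 and 4000 UMIs, Cidea in SG-like cells turned to 0.12 without cell cycle correction, and Fabp5 was at 0.83 in SG-like cells when only Xist cells were used.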

How the results depend on the processing

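All 10 members stayed higher in SG-like than in other epithelial cells in both libraries under the 9 alternatives that gave that ratio. The same held for the uHF/SG ratio except for Scd1, which kept its sign in 7 of 9 per library, and Fabp5, which turned to 0.41 (PADI4 WT) and 0.91 (PADI4 cKO) at a limit of 1000 UMIs per cell. That limit merged the SG-like into the uHF/SG cells, so it gave no SG-like value, and resolution 0.5 gave no uHF/SG group. Of the 82 counts recomputed, 72 stayed within 1.5 times. The ratios were less steady. Between cell groups 202 recomputed ratios were classed as the same, 156 as moved and 2 as reversed. Between libraries 344 were the same, 71 moved and 3 reversed. With doublets left out 34 ratios between cell groups moved and 6 were the same, and without cell cycle correction 33 moved and 7 were the same. Members past 0.5 between the libraries over all epithelial cells numbered 2 at 4000 UMIs, with doublets left out, in Xist cells alone and in Y-linked PADI4 WT cells (added after the data were seen), and 0 after thinning to 2000 UMIs, at a size of 1 and after centring ratios on the median. In uHF/SG cells the number was 1 at 1000 UMIs and 1 after thinning, and in SG-like cells 1 when 500 UMIs were required. Between the libraries in uHF/SG cells, Scd1 reversed to -0.60 at 1000 and -0.96 at 4000 UMIs, and Fabp5 to -0.29 with doublets left out. Apart from the group sizes given, the cause was not tested. No paired analysis was possible because each genotype had 1 library. Depth limited Lpl and Aldh3a1 in SG-like cells and Elovl3 in uHF/SG cells.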

Other observations

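Within the PADI4 WT library the 13 Xist and 36 Y-linked SG-like cells had nearly equal levels of Pparg (1645 and 1637 CPM), Acsbg1 (590 and 613 CPM) and Plin2 (515 and 539 CPM), while Mgst1 was at 2471 and 3201 CPM and Cidea at 863 and 1096 CPM. In the uHF/SG cells of the same library Pparg was at 568 and 628 CPM and Aldh3a1 at 232 and 192 CPM. Pparg also differed between the libraries in opposite directions in cell groups where it was lower than in the SG-like, uHF/SG and Hapln2 groups. Of 9 groups compared, 2 were higher and 2 lower in PADI4 cKO by more than 0.5 log2 units. The log2 ratio of PADI4 cKO over PADI4 WT was 2.61 in the LPC-like Sp5 cells (lower proximal cup, 10 and 90 UMIs, 0.900 and 5.72 CPM). It was 1.44 in the Stfa1 cluster (203 and 212 UMIs). In the Krt75 cluster it was -3.17 (130 and 10 UMIs) and in the IRS-like cells -1.23 (94 and 35 UMIs). The Krt75 cluster of PADI4 WT (44.0 CPM) and the Stfa1 cluster of PADI4 cKO (62.9 CPM) were above other epithelial cells (15.0 and 16.7). The LPC-like Sp5 cells were below them in both libraries. Of the Krt75 cells 12.5% were marked as likely doublets, and the parts of doublets, sex and animal were not tested.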
